A study of Rattus norvegicus with 20 samples.

Results

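The transcripts of 7 rat genes of brain-derived neurotrophic factor (BDNF) signalling were read by 13 of the 31099 probe sets of the array, which name 14218 genes singly. A probe set was taken where the platform annotation named 1 gene and that gene was Bdnf, Ntf3, Ntrk2, Ntrk3, Ngfr, Sort1 or Vgf. Ntrk2 had 5 probe sets, Bdnf and Sort1 had 2 each, and Ntrk3, Ntf3, Ngfr and Vgf had 1 each. RNA of the nucleus accumbens shell, a ventral striatal region of reward circuits, was measured in 20 rats of the alcohol-preferring (P) line, selected over generations for drinking ethanol by choice. There were 10 rats, numbered 1 to 10, that could drink 15 and 30% ethanol in adolescence, and 10 rats, numbered 12 to 21, had water only. Both groups were of the P line, 1 array was made per animal, and the sources used here do not give the amount drunk, the sex or the age in days. The series title calls the drinking binge-like.

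BDNF and neurotrophin 3 are secreted growth factors of neurons, and their Trk receptors are tyrosine kinases that switch on the Ras, phosphoinositide 3-kinase and phospholipase C routes. Ntrk2 encodes TrkB, the BDNF receptor, as a full-length form with the kinase and as truncated forms without it, the truncated form being the main one in astrocytes, and Ntrk3 encodes TrkC with like variety. In the striatum most BDNF protein is delivered along axons from the cortex and other regions, while striatal neurons carry the receptor. The p75 receptor (Ngfr) binds all neurotrophins, sortilin (Sort1) sorts BDNF precursor and joins p75 in binding it, and Vgf encodes a secreted peptide precursor that neurotrophins and activity induce.

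The upstream sequences of Vgf and Bdnf are shown because both genes are textbook targets of the cyclic AMP response factor CREB. The sequences came from RefSeq on build GRCr8 and run up to the annotated transcript start. Bases before the start are shown 5′ to 3′ in lower case, with the cyclic AMP response motif or its core in capitals.
Vgf, chr12:25277021-25277270, minus strand: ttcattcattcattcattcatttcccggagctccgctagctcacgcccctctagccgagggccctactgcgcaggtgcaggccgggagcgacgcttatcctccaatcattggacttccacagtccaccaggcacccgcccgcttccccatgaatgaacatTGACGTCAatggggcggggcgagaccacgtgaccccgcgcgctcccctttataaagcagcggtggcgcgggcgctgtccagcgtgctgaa
Bdnf, chr3:116637608-116637857, plus strand: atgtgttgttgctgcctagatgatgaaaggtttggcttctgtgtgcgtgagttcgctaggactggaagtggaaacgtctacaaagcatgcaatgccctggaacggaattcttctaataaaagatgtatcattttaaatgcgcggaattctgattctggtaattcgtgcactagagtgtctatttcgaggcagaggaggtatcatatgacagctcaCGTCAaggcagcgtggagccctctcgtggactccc
The whole motif TGACGTCA reads the same on both strands and began 90 bases before the Vgf start. The core TGACG, searched on both strands and contained in the whole motif, began 35 bases before this Bdnf start, on the minus strand. Windows were at hand for 4 of the 7 genes, namely 6 for Bdnf, 3 for Ntf3 and 1 each for Sort1 and Vgf. The whole motif was in 1 of these 11 windows, that of Vgf, and in 612 of all 33469 windows (1.83%). The core was in 2 of the 11, those shown, and in 21.2% of all windows. These are matches of letters, and the arrays hold no measure of factor binding.

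The array values were deposited as log2 units after robust multi-array averaging (RMA), so a difference of 1 is 2-fold, and levels of different probe sets cannot be set against each other. Array medians lay between 7.95 and 7.98 in ethanol arrays and between 7.93 and 7.98 in water arrays. The dimmest 33.3% of probe sets, with means below 6.65, was left out of the test. Of the 13 probe sets, 9 were above this filter, from Ntrk2, Ntrk3, Sort1 and Vgf, and 4 were below it, both of Bdnf and those of Ntf3 and Ngfr. The labelled tissue was checked against 17 medium spiny neuron markers, and all 17 were above the filter. Of 8 cortical excitatory neuron markers on the array, Slc17a7, Neurod6, Tbr1 and Emx1 were below the filter and Neurod2, Cux2, Rasgrf2 and Nptx1 were above it. The water rats 17, 19 and 20 had the lowest medium spiny neuron marker means of all 20 animals, 11.84, 12.10 and 11.56, against at least 12.35 in every ethanol rat, and the highest means of a septum and basal forebrain list, 8.99, 8.59 and 9.23.

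None of the 9 tested probe sets passed the comparison of ethanol with water rats after adjustment over all 20695 probe sets tested (limma, Benjamini-Hochberg, threshold 0.05). Over the whole array, 20 probe sets passed, 0.0966%. At an unadjusted p below 0.05, 2 of the 9 stood lower in ethanol rats, both from Ntrk2, and 12.1% of all tested probe sets met that mark. The plot of every animal's value shows the spread behind these counts.

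**Figure D1:**
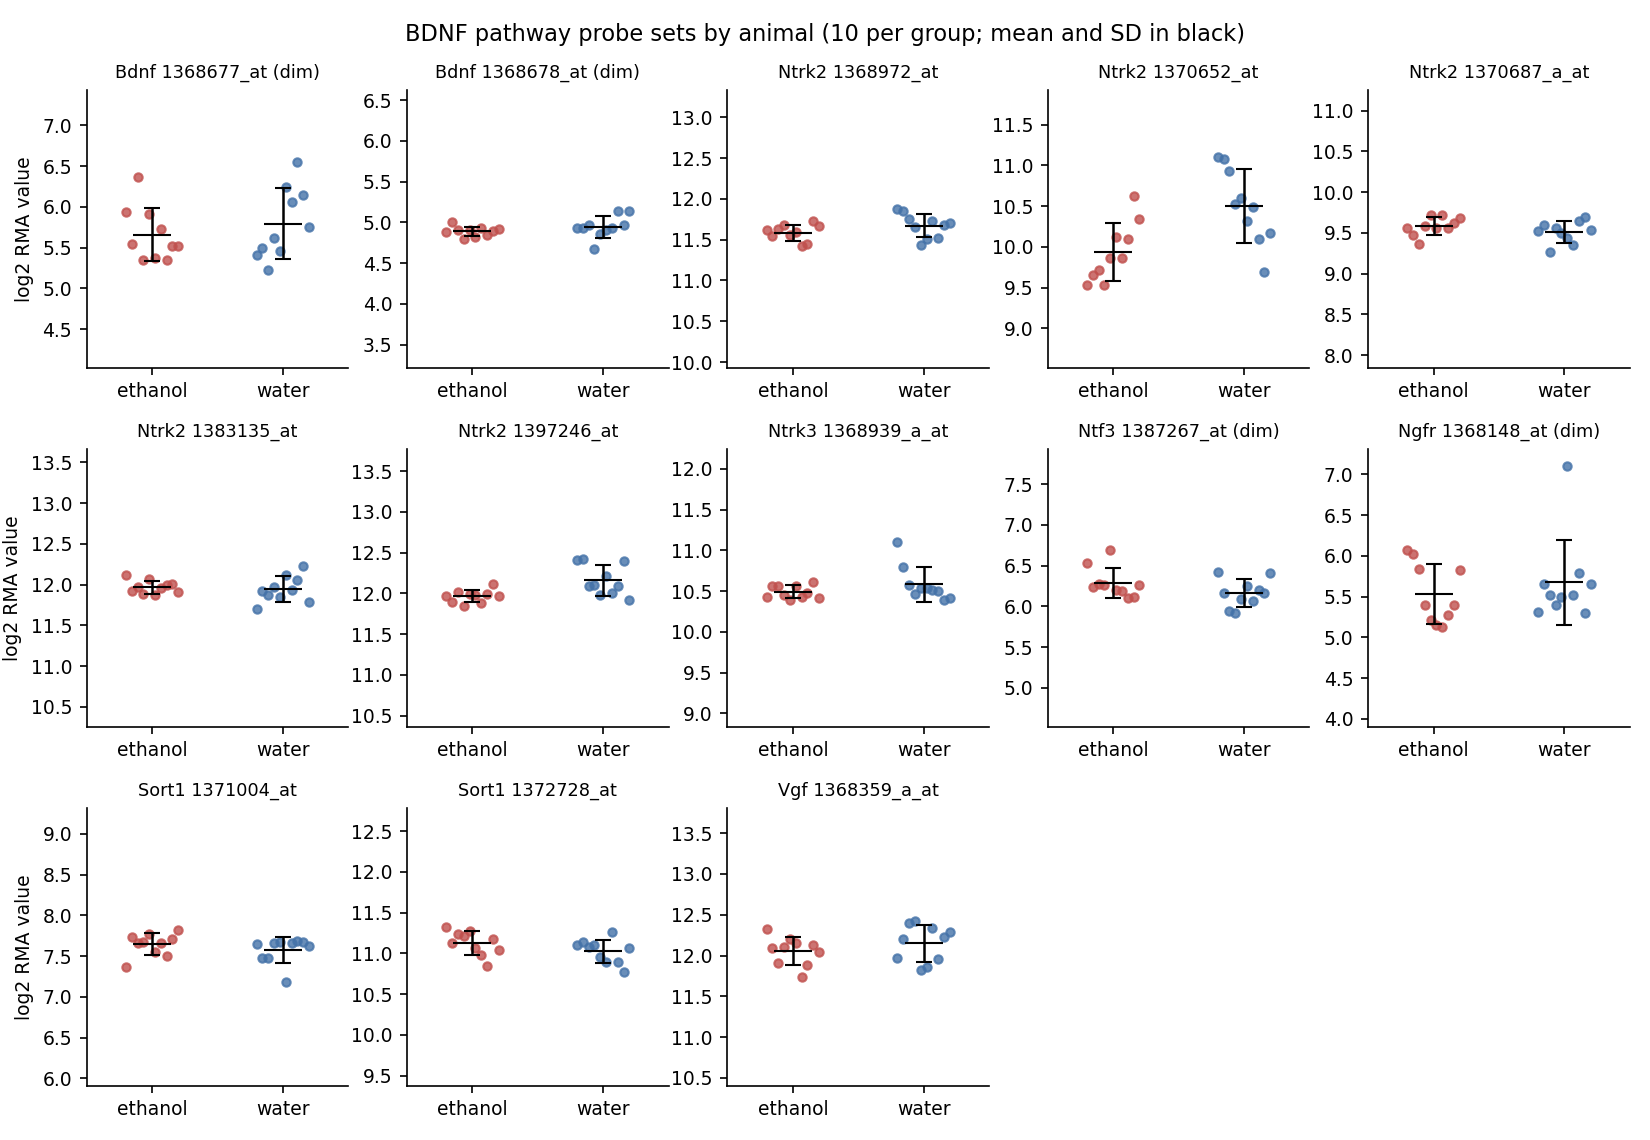
Log2 RMA value of each of the 13 probe sets (panels) in the ethanol and water rats, 1 point per animal and 10 per group, with the group mean and SD. The groups overlap in every panel, and Ntrk2 1370652_at has 3 ethanol rats below the lowest water rat.

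Both Bdnf probe sets were dim in both groups. Bdnf 1368677_at had a lowest, median and highest value of 5.34, 5.53 and 6.36 in ethanol rats and of 5.22, 5.68 and 6.55 in water rats. Its means were 5.66 ± 0.33 in ethanol rats and 5.79 ± 0.43 in water rats (SD, n = 10 each), a difference of -0.14 with a 95% interval of -0.46 to 0.19 (limma without the filter, adjusted p = 0.77). The groups overlapped nearly throughout. Bdnf 1368678_at was lower still, with 4.8, 4.89 and 5.0 in ethanol rats and 4.67, 4.93 and 5.14 in water rats as lowest, median and highest, and differed by -0.06 (adjusted p = 0.695). Within the 3 runs of deposit described below, 1368677_at differed by 0.36, -0.49 and -0.43. No background level was worked out for these probe sets. At values this low a change of Bdnf transcript can be missed, so a change cannot be called absent.

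Ntf3 1387267_at, for neurotrophin 3, the ligand of TrkC, was also below the filter. It had 6.10, 6.25 and 6.69 in ethanol rats and 5.92, 6.16 and 6.43 in water rats, again as lowest, median and highest. The difference was 0.12 (adjusted p = 0.566, limma without the filter), and the ranges overlapped.

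The 5 Ntrk2 probe sets differed in what they showed. Probe set 1370652_at, designed on an mRNA record, stood lower in ethanol rats, 1397246_at, designed on an expressed sequence tag, stood slightly lower, and the other three differed by under 0.1. Which TrkB form each probe set reads cannot be told from the sources used here, since probe sequences were not used, so they are kept apart only as possible full-length and truncated readouts.

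Ntrk2 1370652_at had a lowest, median and highest value of 9.53, 9.86 and 10.62 in ethanol rats and of 9.70, 10.51 and 11.10 in water rats. In ethanol rats 3 of 10 lay below every water rat, 3 water rats lay above every ethanol rat, and 9 of 10 ethanol rats lay below the water mean. The means were 9.93 ± 0.36 in ethanol rats and 10.50 ± 0.45 in water rats (SD, n = 10 each). The difference of -0.57 (SE 0.17, 95% interval -0.92 to -0.22) is 1.48-fold lower in ethanol rats, with p = 0.00283 and an adjusted p of 0.267 (limma). In bulk tissue, fewer cells that carry a transcript and less of it per cell cannot be told apart.

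Several settings moved this value. Without the water rats 17, 19 and 20 the difference was -0.77 and passed (adjusted p = 0.0453), and without the water rats 12 and 13, the pair with the highest values, it was -0.42 (adjusted p = 0.329). The water rats 17, 19 and 20 had 10.31, 10.10 and 9.70, below the water mean of 10.50, so leaving them out raised that mean. With the difference between 3′ and 5′ control probes as a covariate it was -0.53 (adjusted p = 0.665). That measure of RNA integrity was 1.03 to 1.35 in ethanol rats, mean 1.16, and 0.999 to 1.46 in water rats, mean 1.29, a higher value being a larger 3′ excess. Astrocyte markers, whose cells carry truncated TrkB, had summed levels of 16.69 to 16.88 in ethanol rats and 16.62 to 17.01 in water rats, and with their mean as a covariate the difference was -0.70 (adjusted p = 0.0895).

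The samples were deposited in 3 runs of ethanol and then water rats, which the labels do not call batches, and the values were set out by run after the data had been seen. In the first run Ntrk2 1370652_at had 9.53, 9.65, 9.72 and 9.53 in ethanol rats 1 to 4 and 11.10, 11.08, 10.93 and 10.53 in water rats 12 to 15, a difference of -1.30. In the second run it had 9.86, 10.12, 9.87 and 10.10 in ethanol rats 5 to 8 and 10.60, 10.31, 10.49 and 10.10 in water rats 16 to 19, a difference of -0.39. In the last run it had 10.62 and 10.34 in ethanol rats 9 and 10 and 9.70 and 10.17 in water rats 20 and 21, a difference of 0.55. Ethanol rats lay below all water rats in the first run, overlapped them slightly in the second, and lay above them in the last. The direction of the pooled difference thus did not hold within every run. With 2 rats per group in the last run, ranges that do not overlap say little. They were also apart there for both Bdnf probe sets, Sort1 1371004_at and Vgf, and in the first run for Ntrk2 1397246_at. The share of all probe sets with ranges apart within a run was not worked out.

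The run by treatment interaction of this probe set passed over all 20695 probe sets (limma, F = 32.5, p = 1.24e-06, adjusted p = 0.0257). It was 1 of 2 probe sets that did, 0.00966% of those tested, and the other has no gene named. No other of the 9 tested probe sets had an adjusted interaction p below 0.725. With each animal left out in turn the adjusted p was below 0.05 in 12 of 20 fits and ran between 0.0028 and 0.0941, the unadjusted p never being above 1.44e-05. Without the last run the ethanol difference was -0.85 (adjusted p = 0.0204), without the second -0.69 (0.66), and without the first -0.08 (0.849). Whether the runs reflect handling, dissection or the animals was not tested.

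**Figure D2:**
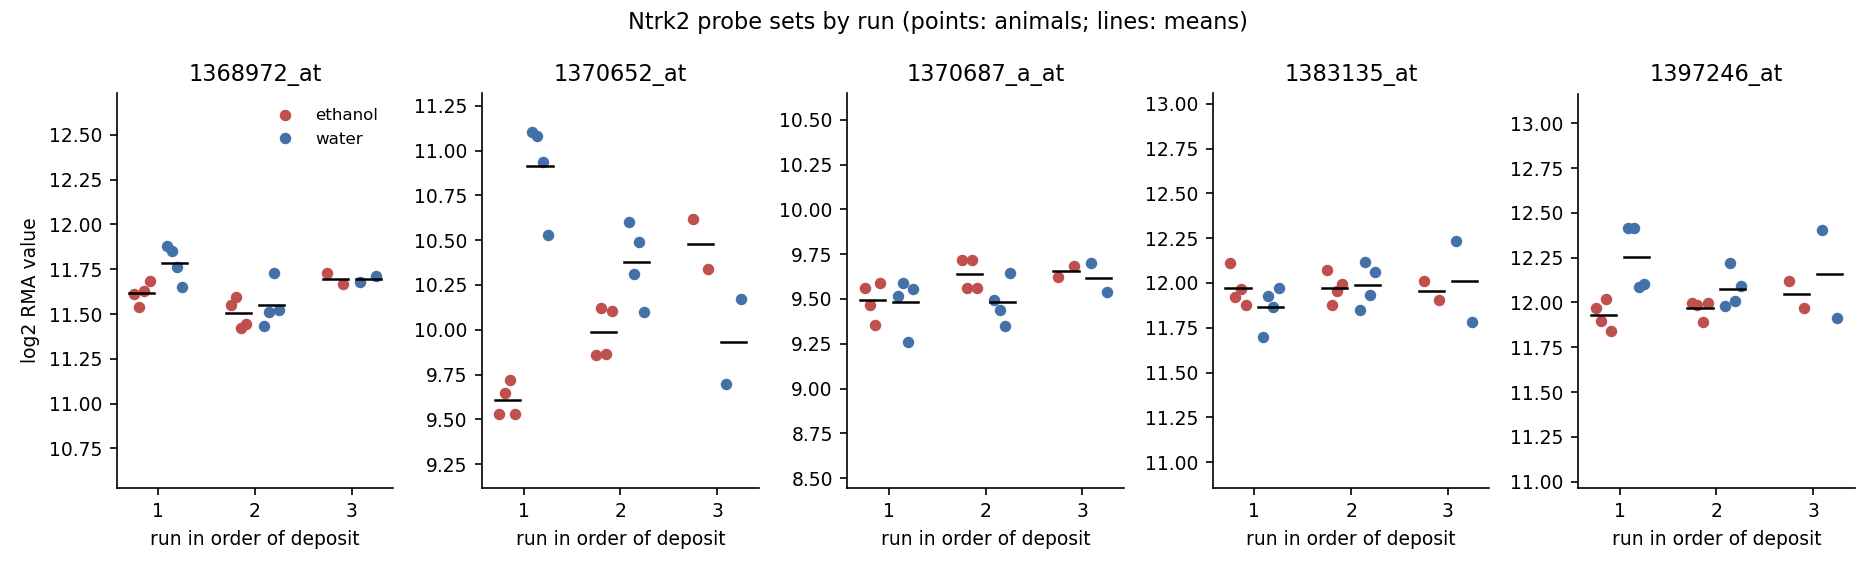
Log2 values of the Ntrk2 probe sets by run in the order of deposit, ethanol rats left of water rats within each run (4, 4 and 2 animals per group), 1 point per animal. Only 1370652_at passed the interaction test, with differences of -1.30, -0.39 and 0.55 in the 3 runs.

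Ntrk2 1397246_at was high in all animals. It had 11.84, 11.98 and 12.12 as lowest, median and highest in ethanol rats and 11.92, 12.10 and 12.42 in water rats. The water rats 12, 13 and 20, at 12.41, 12.42 and 12.40, stood above all others. The means were 11.97 ± 0.08 in ethanol rats and 12.16 ± 0.19 in water rats (SD, n = 10 each), and the difference was -0.19 (SE 0.06, 95% interval -0.33 to -0.06, p = 0.00577, adjusted p = 0.298, limma). All 10 ethanol rats lay below the water mean, while the ranges overlapped. The differences within the 3 runs were -0.32, -0.11 and -0.11, the same direction in each. In the last run that direction rested on water rat 20. Water rat 21, at 11.92, lay below ethanol rats 9 and 10, at 12.12 and 11.97. The pooled difference was -0.12 without the outlying arrays of water rats 12, 17 and 20 (adjusted p = 0.534) and -0.11 without the first run (adjusted p = 0.586).

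The other three Ntrk2 probe sets differed little. Ntrk2 1368972_at, designed on the reference mRNA, had 11.42, 11.61 and 11.73 in ethanol rats and 11.44, 11.70 and 11.88 in water rats as lowest, median and highest, a difference of -0.09 with an interval of -0.20 to 0.03 (adjusted p = 0.525). Ntrk2 1370687_a_at had 9.36, 9.58 and 9.72 in ethanol rats and 9.26, 9.53 and 9.70 in water rats, a difference of 0.07 with an interval of -0.04 to 0.19 (adjusted p = 0.574). Ntrk2 1383135_at had 11.88, 11.96 and 12.11 in ethanol rats and 11.70, 11.93 and 12.23 in water rats, a difference of 0.02 with an interval of -0.09 to 0.14 (adjusted p = 0.876). The groups overlapped at each, and the intervals exclude a change as large as the -0.57 of 1370652_at.

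**Figure D3:**
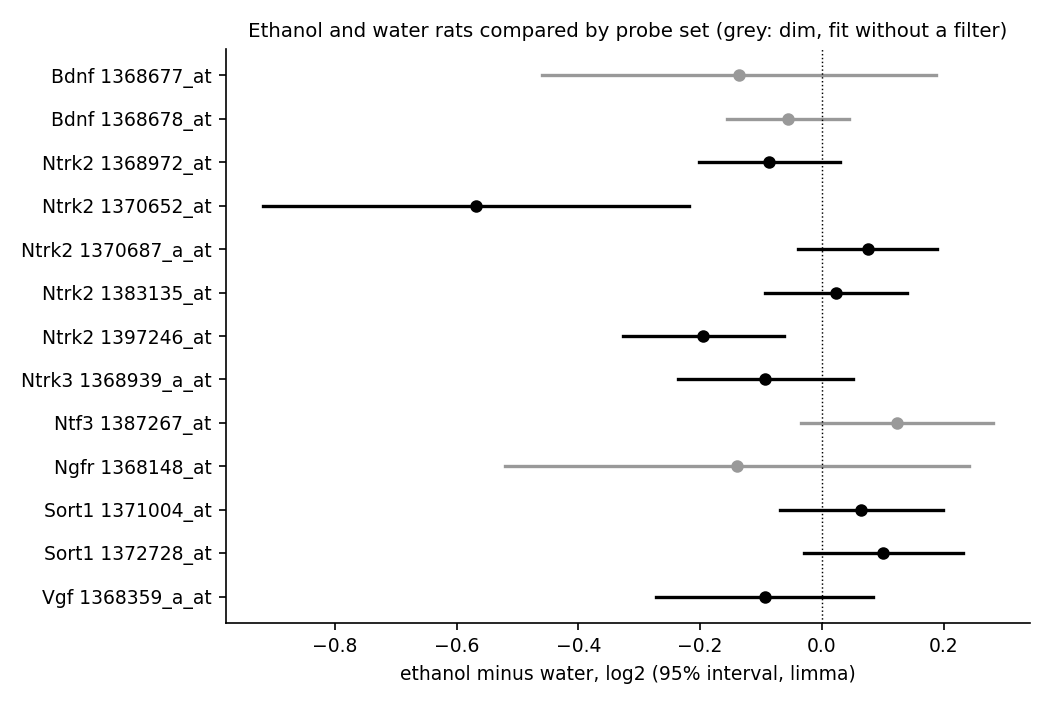
Difference between ethanol and water rats (log2) for each probe set with its 95% interval from limma, ethanol minus water, n = 10 per group, with the 4 probe sets below the filter in grey. The intervals of Ntrk2 1370652_at and 1397246_at lie below 0, and no adjusted p was below 0.05.

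Because probe sets of 1 gene are read in the same animals, their difference within each animal was compared between the groups, in 10 Ntrk2 pairs and 1 Sort1 pair (two-sided permutation test, 100000 resamples, Benjamini-Hochberg over the 11). Of the Ntrk2 pairs 5 passed. Of these, 3 hold 1370652_at and the others hold 1397246_at, the probe sets that stood lower, so the 5 are not separate results. The share of such calls among probe set pairs of other genes was not computed. The farthest apart by p was 1383135_at minus 1397246_at, with -0.11, 0.01 and 0.14 as lowest, median and highest in ethanol rats and -0.71, -0.13 and -0.03 in water rats. All 10 ethanol rats lay above the water mean of -0.22, and the change in the difference was 0.22 (p = 0.00078, adjusted p = 0.00858). It was 0.43, 0.09 and 0.06 in the 3 runs, and 0.12 without water rats 12 and 13 (adjusted p = 0.0347), so it kept its direction but not its size.

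Ntrk2 1370687_a_at minus 1397246_at was -2.38 ± 0.14 in ethanol rats and -2.65 ± 0.18 in water rats (SD, n = 10 each), a change of 0.27 (permutation, adjusted p = 0.012). It was 0.34, 0.26 and 0.15 in the 3 runs, and 0.22 without water rats 12 and 13 (adjusted p = 0.054). The 3 pairs with 1370652_at turned round in the last run. For 1370687_a_at minus 1370652_at the means were -0.35 ± 0.34 in ethanol rats and -0.99 ± 0.53 in water rats, a change of 0.64 (adjusted p = 0.0204) that was 1.32, 0.55 and -0.51 by run. For 1370652_at minus 1368972_at the change was -0.48 (adjusted p = 0.033), and -1.13, -0.34 and 0.55 by run. For 1370652_at minus 1383135_at it was -0.59 (adjusted p = 0.0341), and -1.41, -0.37 and 0.60 by run. These 3 no longer passed without water rats 12 and 13, with adjusted p of 0.084, 0.119 and 0.134. Leaving out 1 animal ended the call of 1370652_at minus 1368972_at in 8 of 20 fits (ethanol rats 1 to 4 and water rats 12, 13, 14 and 16, highest adjusted p = 0.0616). It ended that of 1370652_at minus 1383135_at in 9 of 20, the same 8 animals and ethanol rat 5 (highest adjusted p = 0.0654), while the other three of the 5 pairs passed in all 20.

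The Ntrk2 pairs that missed the threshold included 1370652_at minus 1397246_at, the 2 probe sets that stood lower, with a difference of -0.37 (adjusted p = 0.0877). It passed without ethanol rat 9 (adjusted p = 0.0451) or without water rat 20 (adjusted p = 0.00729). Over the 20 arrays, with group means taken out, the 10 Ntrk2 pairs had Pearson correlations between -0.52 and 0.45, and the lowest adjusted permutation p was 0.293. For 1370652_at and 1397246_at Pearson's r was 0.31 (permutation p = 0.238, adjusted p = 0.397) and Spearman's rho was 0.31 (p = 0.199, adjusted p = 0.397). Their r was 0.57 without the 2 arrays farthest out and 0.72 without water rats 17, 19 and 20.

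**Figure D4:**
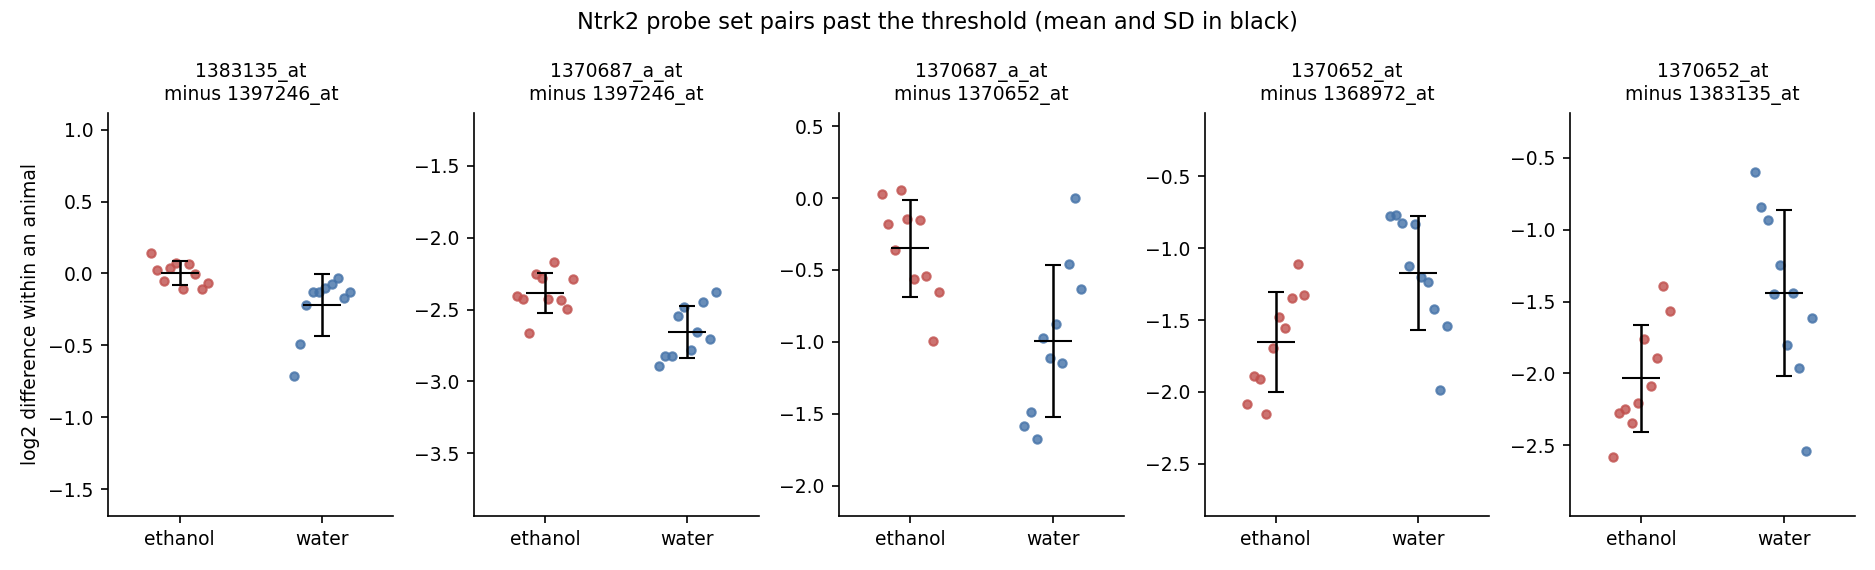
Difference between 2 Ntrk2 probe sets in each animal (log2), ethanol rats left of water rats, 1 point per animal and 10 per group, for the 5 pairs past the threshold, with the mean and SD in black. In 1383135_at minus 1397246_at all 10 ethanol rats lie above the water mean of -0.22.

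The brightness pattern of each Ntrk2 probe set over the 20 arrays, with group means taken out, was most like that of different genes. For 1370652_at these were Lmo7, Runx1t1 and Ints6 (Pearson r = 0.84, 0.84 and 0.83). For 1397246_at they were Ssh1, Trim26 and Evi5 (0.87, 0.86 and 0.83), and for 1383135_at they were Ampd3, Anks1a and Gls2 (0.91, 0.90 and 0.90). For 1368972_at they were Plcxd3, Vps18 and Otub2 (0.79, 0.79 and 0.78), and for 1370687_a_at they were Ngb, Peli2 and Adipor2 (0.79, 0.77 and 0.76). No gene was shared among these 5 short lists. Lists this short can lack a shared gene even where patterns are alike, so this cannot show that the probe sets differ. The arrays share animals and RNA quality, so the values are descriptions only.

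Ntrk3 1368939_a_at, for the neurotrophin 3 receptor TrkC, had 10.39, 10.47 and 10.61 as lowest, median and highest in ethanol rats and 10.39, 10.52 and 11.10 in water rats. The means were 10.49 ± 0.08 in ethanol rats and 10.58 ± 0.21 in water rats (SD, n = 10 each), and the difference was -0.09 (95% interval -0.24 to 0.05, adjusted p = 0.579, limma). The groups overlapped, and the water rats 12 and 13, at 11.10 and 10.80, were above every ethanol rat. Without water rat 12 the difference was -0.04 (adjusted p = 0.752), and without both it was -0.0016 (adjusted p = 0.988). The differences within the 3 runs were -0.23, -0.05 and 0.11. Its pattern over the arrays was most like those of Mphosph8, Son and Ankrd17 (Pearson r = 0.92, 0.92 and 0.92), which were 0.80, 0.69 and 0.67 without the 2 arrays farthest out.

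Ngfr 1368148_at, for the p75 receptor, was below the filter, with 5.13, 5.40 and 6.07 in ethanol rats and 5.30, 5.52 and 7.11 in water rats as lowest, median and highest. The value of 7.11 was that of water rat 17, and the next water rat was at 5.79. The difference was -0.14 with all animals (adjusted p = 0.804, limma without the filter) and 0.02 without that rat (adjusted p = 0.972). Water rat 17 also had a high septum and basal forebrain marker mean, as given above, and the highest cholinergic neuron marker mean of the water rats, 8.62, against 8.11 to 8.60 in ethanol rats and 8.01 to 8.47 in the other water rats. Water rat 20, with the highest septum and basal forebrain mean, had the lowest Ngfr value of the water rats, 5.30, and water rat 19 had 5.79. Basal forebrain cholinergic neurons are known to carry p75, and the part of such cells in this value was not tested.

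Neither Sort1 probe set passed the test. Sort1 1372728_at had 10.85, 11.15 and 11.32 in ethanol rats and 10.78, 11.07 and 11.26 in water rats, a difference of 0.10 with an interval of -0.03 to 0.23 (adjusted p = 0.513, limma). This difference was 0.03 without water rats 17, 19 and 20, 0.02 with the medium spiny neuron marker mean as a covariate and 0.04 with the oligodendrocyte one. Sort1 1371004_at had 7.37, 7.66 and 7.82 in ethanol rats and 7.18, 7.66 and 7.69 in water rats, a difference of 0.06 (adjusted p = 0.677). The groups overlapped at both, and 7.18 was again water rat 17, without which the difference of 1371004_at was 0.02 (adjusted p = 0.908). Within animals the 2 probe sets differed between the groups by -0.04 (permutation, adjusted p = 0.702).

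Vgf 1368359_a_at had 11.73, 12.10 and 12.33 in ethanol rats and 11.82, 12.22 and 12.42 in water rats as lowest, median and highest. The means were 12.06 ± 0.17 in ethanol rats and 12.15 ± 0.23 in water rats (SD, n = 10 each), with a difference of -0.09 (95% interval -0.27 to 0.08, adjusted p = 0.649, limma). The groups overlapped, and the differences were -0.14, -0.01 and -0.17 within the 3 runs. The pattern of Vgf, the gene with the whole cyclic AMP response motif, was most like those of Mpped2, Rerg and Sncaip (Pearson r = 0.94, 0.84 and 0.84).

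The wider pathway was read with 1 probe set per gene, the brightest. None of the genes in its 7 lists passed, and 10 of 10746 genes above the filter (0.0931%) passed over the whole array, with 10% below an unadjusted p of 0.05. The ligand and receptor list had 7 genes above the filter, Ntrk2, Ntrk3, Sort1, Sorl1, Sorcs1, Sorcs2 and Sorcs3, and no ligand. Their median difference was -0.02, against a value near 0 over all genes. Of these 7, only Ntrk2 had an unadjusted p below 0.05, by 1397246_at as given above. Of 10 genes linked to the processing and secretion of neurotrophins none did, with a median of -0.07. Those of smallest p were Plat, tissue plasminogen activator (-0.16), the prohormone convertase Pcsk2 (0.23) and Cadps, a priming factor of dense-core vesicles (-0.16).

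All 7 granin and granule peptide genes were above the filter, 2 had an unadjusted p below 0.05, both lower, and the median was -0.09. Scg2, secretogranin II, averaged 13.41 ± 0.09 in ethanol rats and 13.53 ± 0.12 in water rats (SD, n = 10 each), a difference of -0.13 (limma, adjusted p = 0.327). Chga, chromogranin A, averaged 11.21 ± 0.25 in ethanol rats and 11.46 ± 0.24 in water rats, a difference of -0.25 (adjusted p = 0.361). Pcsk1n, an inhibitor of a prohormone convertase, differed by -0.17 (adjusted p = 0.54). Granins are the cargo of the vesicles that also hold BDNF.

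Of 30 adaptor and signalling genes downstream of Trk, 3 had an unadjusted p below 0.05, and the median was 0.01. They were the phosphoinositide 3-kinase subunits Pik3r1 (0.18, adjusted p = 0.327) and Pik3ca (-0.08, 0.405) and the small GTPase Rap1a (-0.12, 0.379). Of 12 p75 adaptor genes 1 did, the kinase Ripk2 (0.19, adjusted p = 0.38), beside Irak1 (0.08) and Traf6 (-0.08). Of 12 regulators of Bdnf transcription none did, Creb1 differing by -0.11 (adjusted p = 0.439), Usf1 by -0.06 and Mef2c by 0.14. Of 15 genes of Trk trafficking and turnover 2 did, N-cadherin (Cdh2, -0.14, adjusted p = 0.306) and the Src family kinase Fyn (-0.11, adjusted p = 0.327), with Slitrk1 next (-0.24, adjusted p = 0.416). Shares of unadjusted calls in lists this short can be read only beside the 10% of all genes.

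No cell type marker passed the test. The lean of the medium spiny neuron and oligodendrocyte lists was not seen without water rats 17, 19 and 20. Those rats had the lowest medium spiny neuron means. They also had the highest oligodendrocyte means (11.66, 11.51 and 11.55) and the highest astrocyte means (12.20, 12.21 and 12.37) of the water rats. Leaving them out had to raise the water mean of the first list and lower those of the others, so it is no test of any of these leans. All 17 medium spiny neuron markers were on the higher side in ethanol rats, with a median difference of 0.26 and summed levels of 16.87 to 17.46 in ethanol rats and 16.13 to 17.44 in water rats. All 15 oligodendrocyte and myelin markers were on the lower side, with a median of -0.15 and summed levels of 16.29 to 17.05 in ethanol rats and 16.26 to 17.03 in water rats. The 13 astrocyte markers had a median of -0.05, with 9 lower and 4 higher. Without those 3 water rats, a comparison added after seeing the data, 5 medium spiny neuron markers were higher and 12 lower, with a median of -0.03. The list then averaged 12.79 in ethanol rats and 12.81 in the other water rats. The oligodendrocyte markers were then 7 higher and 8 lower, with a list mean of 11.04 in ethanol rats and 11.05 in the other water rats, and the astrocyte median was -0.01. Some other lists kept their side, with 7 of 9 endothelial and mural markers higher (median 0.09). Of the microglia markers 8 of 10 were lower (median -0.04), and of the oligodendrocyte precursor markers 5 of 7 (median -0.03). With the medium spiny neuron mean as a covariate the difference of Ntrk2 1370652_at was -0.69 (adjusted p = 0.104), and with the oligodendrocyte mean it was -0.65 (adjusted p = 0.171).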

How the data were processed

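The deposited log2 values of 20 1-colour Affymetrix arrays were used as the authors gave them. Per the labels' protocols, a 3′ labelling kit turned 50 ng of total RNA into biotinylated cRNA, so values depend on RNA integrity. Per the submitters' processing notes the tool was RMA, which normalizes between arrays and removes overall shifts, and its version was not given in the sources used here. Values ran from 3.89 to 16.25. The number of arrays limits the precision, and depth does not apply.

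Groups came from the treatment label. Of the probe sets, 20832 name 1 gene, 436 several and 9780 none in GEO's platform annotation. The gene identifiers of 20764 matched RefSeq genes of GRCr8, all 13 studied here included. The 57 controls and the dimmest 33.3% of probe sets were left out. Groups were compared with limma 3.58.1 (R 4.3.3), two-sided, with Benjamini-Hochberg adjustment over the 20695 left, after a test on simulated data. Differences between probe sets were tested by permutation (scipy 1.17.1). Probe sets below the filter took values from the fit without it. Each pathway list gave the genes past the threshold or, with none, the 3 of smallest p. Likeness genes were the 3 named genes of highest correlation for each Ntrk2 probe set, Ntrk3 and Vgf. The genes and lists were chosen with earlier results of these data known.

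Alternatives were other filters, normalizations and array weights, covariates for integrity and cell markers, and animals left out. Values by run, the interaction, runs left out, water rat 17 left out and marker lists without water rats 17, 19 and 20 were chosen after seeing the data.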

Additional observations from a re-analysis of the deposited data

Results flagged for a closer look

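In 2 of 26 groups 1 value stood far from the rest, both times that of water rat 17, where chance gives about 1 in 20 groups. Ngfr 1368148_at was 7.11 in that rat, with the next water rat at 5.79. Sort1 1371004_at was 7.18 in that rat, with the next water rat at 7.48. Without water rat 17, Ngfr had means of 5.54 in ethanol rats and 5.52 in water rats, and this Sort1 probe set had means of 7.64 in ethanol rats and 7.62 in water rats.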

How the results depend on the processing

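Of 332 recomputed differences of the 9 tested probe sets, over 17 alternatives and 20 fits with 1 animal left out, 325 kept their direction and their side of the threshold, 2 newly passed and 5 changed sign. Sort1 1371004_at could not be tested with the dimmest 50% left out. Probe sets called in the whole table numbered 20, and were 10 with the dimmest 50% left out, 38 with array weights, 50 without water rats 17, 19 and 20, 8 with the 3′ to 5′ covariate, 32 with the astrocyte and 47 with the medium spiny neuron covariate, 1 without the first run and 0 without the second (limma). Of the 9, the count called was 0, and 1 without water rats 17, 19 and 20 or without the last run, in each case Ntrk2 1370652_at. The sign changes are given next, together with those of values within single runs, which are not among the 332. Ntrk2 1383135_at was -0.0090 without water rats 12 and 13, -0.029 without the first run, -0.0033 to 0.056 with 1 animal left out, and -0.017 and -0.052 within the second and last run. Ntrk3 was 0.0010 without the first run and 0.11 within the last, Ntrk2 1368972_at was 0.00092 and 1370652_at 0.55 within the last, and Sort1 1371004_at was -0.011 with the 3′ to 5′ covariate. Among probe set pairs, without water rats 12 and 13 the changes of 1370687_a_at minus 1370652_at (0.51), 1370687_a_at minus 1397246_at (0.22), 1370652_at minus 1368972_at (-0.38) and 1370652_at minus 1383135_at (-0.41) no longer passed, nor did the last on ranks (-6 ranks). Without water rats 17, 19 and 20, 1370687_a_at minus 1368972_at (0.24), 1370652_at minus 1397246_at (-0.60, and -0.51 without the outlying arrays of water rats 12, 17 and 20) and 1368972_at minus 1383135_at (-0.24) newly passed, and the Sort1 pair changed sign (0.011). With 1 animal left out, 1370652_at minus 1368972_at ran between -0.57 and -0.43 and missed the threshold in 8 of 20 fits, 1370652_at minus 1383135_at ran between -0.71 and -0.50 and missed it in 9, 1370652_at minus 1397246_at ran between -0.49 and -0.32 and newly passed in 2, and the Sort1 pair between -0.065 and 0.016. The causes were not tested. No paired analysis was possible because the animals of the 2 groups share no replicate numbers. Dim signal limits what can be said of Bdnf, Ntf3 and Ngfr.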
